A study of Mus musculus with 16 samples.

Results

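Ptprc, Itgam, Adgre1 and Fcgr1 encode CD45, CD11b, F4/80 and CD64, the 4 surface proteins by which the macrophages of this study were sorted. They were chosen because they name the sort gate and not by a chromatin value, and every called peak that overlapped one of the 4 gene bodies with 10 kb on each side was taken as theirs. This gave 151 of the 320508 peaks called across the 16 libraries: 57 at Ptprc, 41 at Itgam, 16 at Adgre1 and 37 at Fcgr1.

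The cells were macrophages recruited to the calf muscle of C57BL6J wild type mice, males of 8 to 12 weeks, after hindlimb ischemia by ligation of the femoral artery, and they were sorted as CD45+CD11b+F4/80+CD64+ cells. Muscle was taken at 4 or 2 days post injury (dpi), and each time point was profiled in 2 libraries for each of 4 histone marks: lactylation of histone H3 at lysine 18 (H3K18la), H3K4me3, H3K27ac and H3K27me3. All mice were injured and all cells passed the same gate, so there is no uninjured muscle and no cell outside the gate to compare with. The assay was CUT&Tag, in which an antibody brings a transposase to a chromatin mark and the cut fragments are sequenced. The paper calls the 2 libraries of a group biological replicates. The labels do not say that they came from separate mice, so p-values here measure only the spread between these libraries.

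CD45 is a receptor tyrosine phosphatase carried by nearly all white blood cells, which sets the activity of Src family kinases. CD11b is the alpha chain of the integrin Mac-1 (complement receptor type 3), used by monocytes and neutrophils to adhere to vessel walls and to engulf complement-coated particles. F4/80 is an adhesion G protein-coupled receptor that marks mouse tissue macrophages, and CD64 is the high-affinity receptor for IgG, widely used to separate macrophages from dendritic cells. H3K4me3 marks active promoters, H3K27ac active promoters and enhancers, and H3K27me3 chromatin silenced by Polycomb, while H3K18la is a mark derived from lactate. The transcription factor PU.1, which the myeloid lineage needs, is known to bind the promoters of the human CD11b and CD64 genes.

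RefSeq promoter sequences (250 bases before to 50 after an annotated start, build GRCm38.p6) were at hand for 3 of the 4 genes, and they are shown because peaks at the gene starts carry most of the results described next. Capitals mark the PU.1 core GAGGAA, read on either strand (TTCCTC on the other). The Ptprc sequence, with 1 match, is at 1:138175256-138175555 on the minus strand, that of Itgam, with 3 matches, at 7:128062390-128062689 on the plus strand, and that of Fcgr1, with 1 match, at 3:96293920-96294219 on the minus strand.
Ptprc: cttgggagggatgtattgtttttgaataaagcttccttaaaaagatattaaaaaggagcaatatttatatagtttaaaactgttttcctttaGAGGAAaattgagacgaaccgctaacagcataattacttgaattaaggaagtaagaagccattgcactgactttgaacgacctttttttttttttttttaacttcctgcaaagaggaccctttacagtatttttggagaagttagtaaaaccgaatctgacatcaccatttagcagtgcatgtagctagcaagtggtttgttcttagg
Itgam: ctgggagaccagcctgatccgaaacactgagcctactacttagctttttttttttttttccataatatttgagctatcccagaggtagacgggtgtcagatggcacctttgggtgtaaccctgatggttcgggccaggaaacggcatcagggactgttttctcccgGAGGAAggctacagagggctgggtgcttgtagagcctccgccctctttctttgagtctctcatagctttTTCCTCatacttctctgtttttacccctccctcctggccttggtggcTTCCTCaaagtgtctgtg
Fcgr1: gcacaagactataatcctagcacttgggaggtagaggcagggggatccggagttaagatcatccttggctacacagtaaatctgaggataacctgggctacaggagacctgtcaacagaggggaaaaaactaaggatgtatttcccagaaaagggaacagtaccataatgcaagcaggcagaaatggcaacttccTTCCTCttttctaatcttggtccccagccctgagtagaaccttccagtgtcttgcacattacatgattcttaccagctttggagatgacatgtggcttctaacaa
The core occurs in 28.3% of the 32851 promoters in the same collection, and a match is a description of the letters, not a binding site. The letters TATAAA were found on either strand in the Ptprc promoter (1 match) and not in those of Itgam or Fcgr1, against 13.6% of all promoters. The AP-1 letters TGACTCA, in 5.2% of all promoters on either strand, were in none of the 3. A 2nd Ptprc entry, which starts further downstream and overlaps the one shown, held none of the 3 motifs.

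The 16 libraries are known here only as peak lists, so their sequencing depth is unknown. They held 15190 to 27578 peaks for H3K18la, 16446 to 18413 for H3K4me3, 24976 to 35971 for H3K27ac and 12060 to 14836 for H3K27me3. Signal was therefore read as a percentile within each list: 100 is the peak of the highest summed signal in that library. Since a wider peak sums more signal, the percentile rises with width as well as height. A single library stood apart: H3K27ac at 4 dpi replicate 1, the only library with its sample-name prefix (S100). Its median peak width was 4250 bp, against 1218 bp in the narrowest H3K27ac library. Gene levels over the windows with 10 kb on each side, and tested differences, that include this library are given with and without it.

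With 10 kb on each side, all 4 genes of the gate carried peaks of the 3 active marks in every library, and nearly none of H3K27me3. The share of other genes that do so was not computed, since no annotation of GRCm39 was used. Within the gene body alone, Itgam had an H3K18la peak in 3 of 4 libraries. Without the peaks under the 25th percentile of maximum signal, H3K18la was in 3 of 4 libraries at Itgam and 2 of 4 at Adgre1. Peaks of H3K27me3 covered only 1.92% to 2.97% of the chromosome span in its libraries. The 151 peaks comprised 45 of H3K18la, 36 of H3K4me3, 69 of H3K27ac and 1 of H3K27me3. Merging the overlapping peaks of 11 active-mark libraries (all but H3K27ac at 4 dpi replicate 1), and keeping places called in at least 4 of them, gave 13 sites: 4 at gene starts, 4 inside genes, 3 upstream and 2 downstream. H3K18la was called in 4 of 4 libraries at 8 sites, H3K4me3 at 8 and H3K27ac at 12, while 3 sites had no H3K4me3 in any library. These sites were defined after the peaks had been seen. A site or tested region that crosses the edge of a window also takes in peaks past the edge, which are not among the 151. With 2 libraries at each time point, the groups often fail to overlap by chance. The share of all regions without overlap was not computed. Distances are given from the gene start in the direction of transcription, in GRCm39, the build of the peak files.

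**Figure D1:**
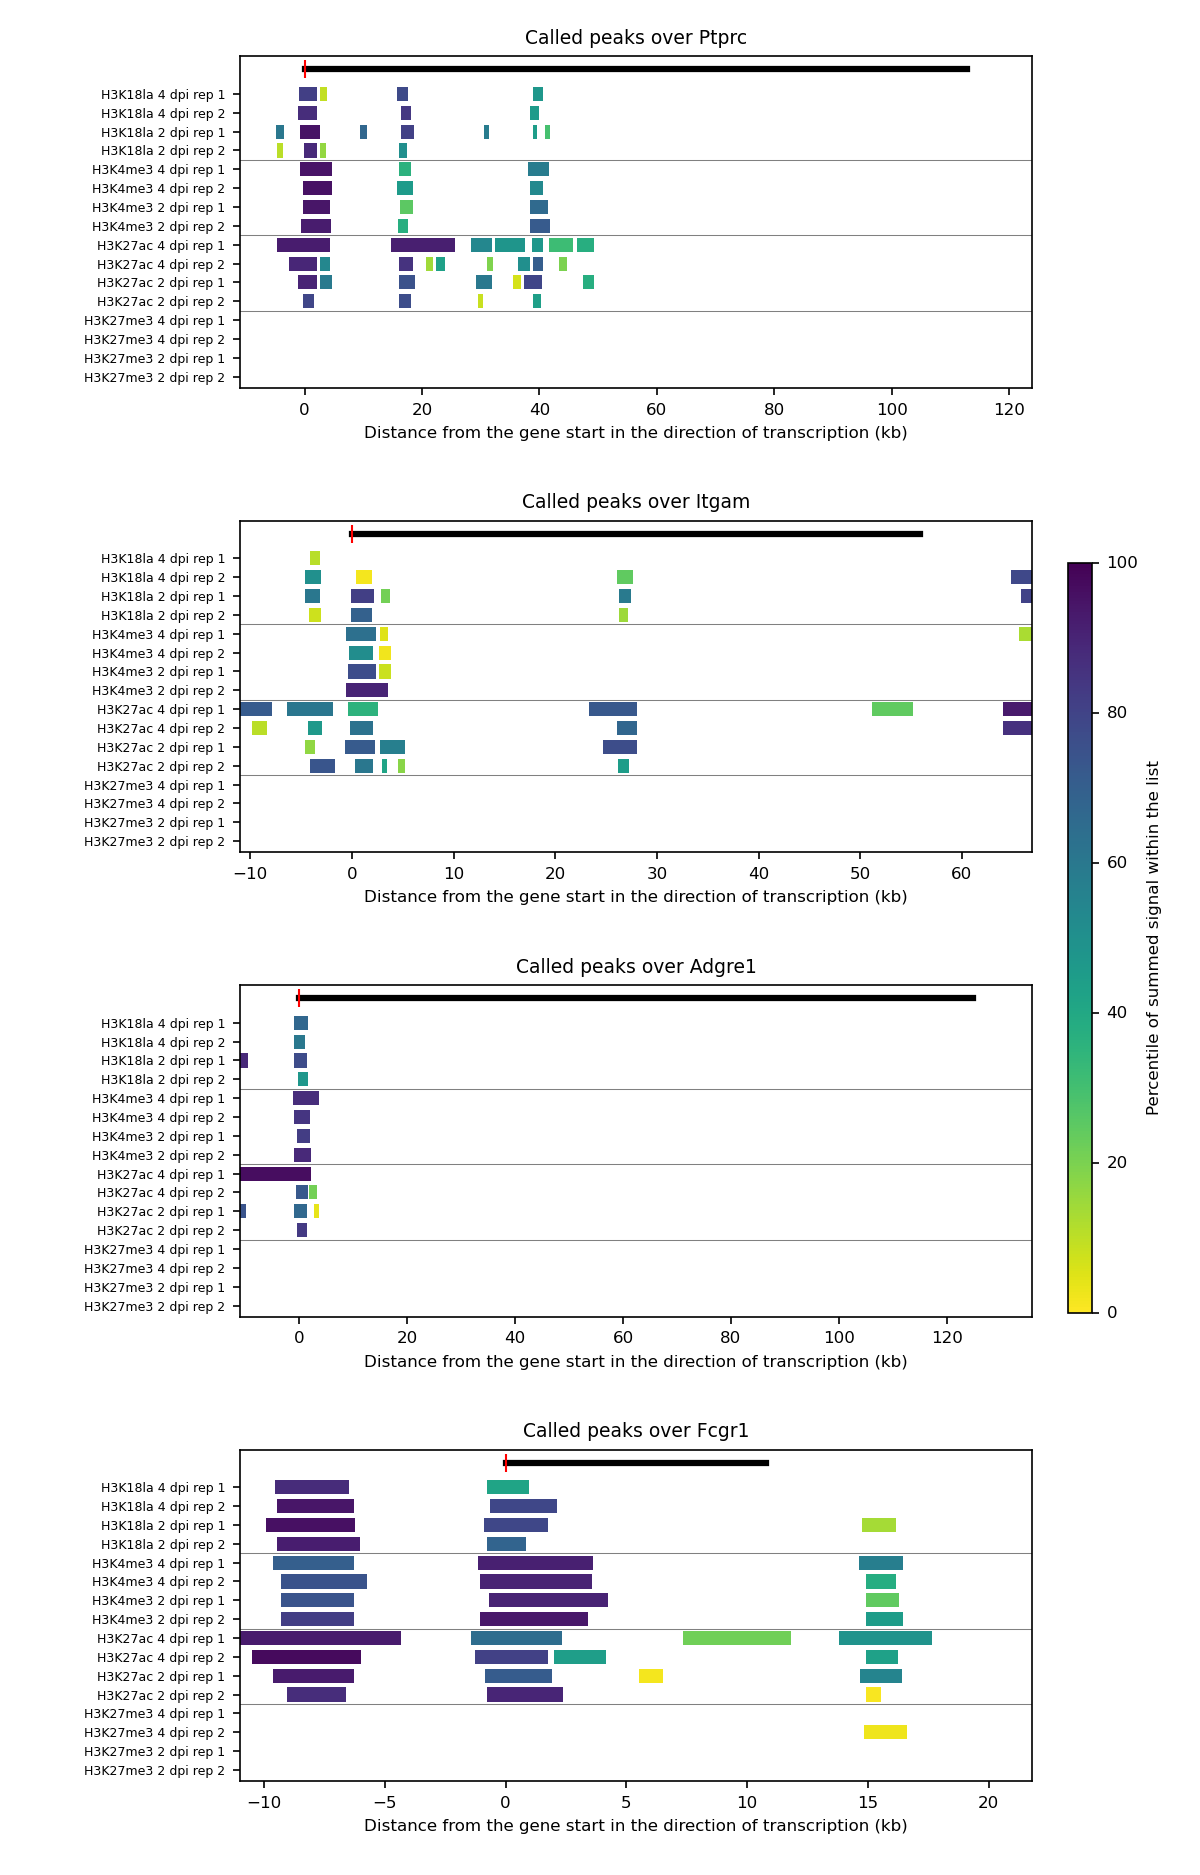
Called peaks over the 4 genes by library, with the distance from the gene start in kb on the x axis, 1 row per library and the colour giving the percentile of summed signal within its list. The black bar is the gene and the red tick its start. Peaks of the 3 active marks gather at the starts and, for Ptprc, Itgam and Fcgr1, at a few further sites, H3K27ac at 4 dpi replicate 1 has the widest peaks, and the rows of H3K27me3 hold a single peak, at Fcgr1.

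The strongest H3K18la peak of each gene ranked highest at Fcgr1, with a percentile of 92.4 ± 3.65, and next at Ptprc, with 88.1 ± 5.74 (SD, n = 4 libraries over both time points). Adgre1 followed at 65.6 ± 17.3 and Itgam at 60.0 ± 33.3. The ranges of neighbours in this order overlapped: 87.6 to 96.1 for Fcgr1, 81.3 to 95.3 for Ptprc, 47.1 to 88.4 for Adgre1 and 10.7 to 81.5 for Itgam. At Adgre1 and Itgam the strongest peak was not at the same site in every library, so these SDs mix sites. The Adgre1 value of 88.4 is an upstream peak at the window edge, and its other values are promoter peaks. For Itgam, the 2 dpi values are promoter peaks. At 4 dpi they are an upstream peak in replicate 1 and the peak past the gene end in replicate 2. The order depended on the window and the peaks kept. In these means a library without a peak counts as 0. Within the gene bodies alone Ptprc led at 88.1, ahead of Fcgr1 at 66.8, since the strongest Fcgr1 peak lies upstream of the gene. Adgre1 was at 62.8 there and Itgam at 43.9, with an Itgam peak in 3 of 4 libraries. Without the peaks under the 25th percentile of maximum signal Adgre1 was at 38.9, with a peak in 2 of 4 libraries. Itgam was then at 57.4, with a peak in 3 of 4. With 50 kb on each side Adgre1 was at 73.9 and Itgam at 75.5.

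For H3K4me3 the order was Ptprc, at 94.2 ± 1.34, Fcgr1, at 91.4 ± 1.44, Adgre1, at 85.5 ± 2.77, and Itgam, at 70.4 ± 16.7 (SD, n = 4). Fcgr1 (90.4 to 93.5) overlapped Ptprc (92.4 to 95.5) but not Adgre1 (82.2 to 88.3), and Itgam (51.3 to 90.0) overlapped Adgre1. Ranked by the maximum height of a peak in place of its sum, the 4 genes stood lower, at 70.2 for Ptprc, 75.9 for Fcgr1, 71.5 for Adgre1 and 49.9 for Itgam. The highest peak was not always the one of largest sum. At the sites over the gene starts, H3K4me3 was placed higher by summed signal than by height. The means were 94.2 against 63.8 for Ptprc, 91.4 against 62.4 for Fcgr1, 85.5 against 71.5 for Adgre1 and 70.4 against 49.9 for Itgam. Sites away from these starts and called in all 4 libraries were mixed. At Ptprc they gave 36.0 against 33.7 (+15.8 kb) and 62.2 against 64.3 (+35.5 kb). At Fcgr1 they gave 75.15 against 75.94 (-10.5 kb) and 41.3 against 53.8 (+14.6 kb).

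H3K27ac gave 93.0 ± 3.22 at Fcgr1, 87.8 ± 5.84 at Ptprc, 82.4 ± 8.90 at Itgam and 81.6 ± 11.1 at Adgre1 (SD, n = 4), and without the wide-peak library 93.2, 86.2, 78.8 and 76.5 (n = 3). Neighbours in this order overlapped. Within the gene bodies alone, with the wide-peak library included, the values were 76.6 at Fcgr1, 87.8 at Ptprc, 69.4 at Itgam and 79.7 at Adgre1. In its window with 10 kb on each side Fcgr1 was also the most densely marked gene: peaks covered 19.1% ± 4.36 of its 30.8 kb window for H3K18la, 30.8% ± 1.19 for H3K4me3 and 35.2% ± 16 for H3K27ac (27.8% without the wide-peak library). The same shares were 5.76%, 7.67% and 14.7% (10.2%) at Ptprc, 5.63%, 5.13% and 15.0% (11.1%) at Itgam, and 1.62%, 2.28% and 3.61% (2.02%) at Adgre1. Of the chromosome span, peaks covered 0.93% to 1.69% in the H3K18la libraries and 1.31% to 1.97% in the H3K4me3 libraries. For H3K27ac they covered 1.39% to 7.52%, with the highest share in the wide-peak library. The Adgre1 means lay within these ranges for H3K18la and H3K27ac, and above the range for H3K4me3. The genes differ in length, from 10.8 kb for Fcgr1 to 124.8 kb for Adgre1, and the longer windows include more sequence far from the start.

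Fcgr1, the gene of the IgG receptor CD64, had 3 sites. The one before its start, from -10.5 to -5.7 kb (3:96206746-96211501), was called in all 12 active-mark libraries and held the strongest H3K18la of Fcgr1. H3K18la stood there at percentiles of 87.6 and 94.2 at 4 dpi, against 96.1 and 91.9 at 2 dpi. H3K27ac was as high, at 92.6 and 97.3 at 4 dpi and 92.6 and 87.2 at 2 dpi. H3K4me3 was lower, at 70.3 and 74.4 at 4 dpi and 74.1 and 81.8 at 2 dpi. The values of the time points overlapped for H3K18la and H3K4me3. For H3K27ac both 4 dpi libraries lay above both 2 dpi libraries, 1 of them only just, and the region tested there (-12.0 to -4.3 kb) did not pass (shift 0.43, SE 0.25, limma adjusted p = 0.46, and 0.67 without the wide-peak library, limma adjusted p = 0.261).

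At the Fcgr1 promoter (-1.3 to +4.2 kb, 3:96196764-96202259) the marks were ordered otherwise. H3K4me3 ranked highest, at 91.2 and 90.4 at 4 dpi and 90.6 and 93.5 at 2 dpi. H3K18la was at 41.7 and 78.7 at 4 dpi, against 78.8 and 68.0 at 2 dpi, so that 1 library at 4 dpi lay apart from the other 3. H3K27ac was at 64.7 and 80.8 at 4 dpi and 71.2 and 89.5 at 2 dpi. The downstream site, from +14.6 to +16.5 kb, lies past the gene end on the side of H2bc18, the next protein-coding gene in the RefSeq order of GRCm38.p6. To which gene the site belongs was not tested. It carried H3K4me3 in all 4 libraries (57.5 and 38.2 at 4 dpi, 24.4 and 45.3 at 2 dpi) and H3K27ac in all 4. H3K18la was called there in 1 library, at 2 dpi, with a percentile of 13.4.

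The single H3K27me3 peak of the 4 genes lay at this downstream Fcgr1 site, in 4 dpi replicate 2, with a percentile of 2.44 by summed signal, and the other 3 H3K27me3 libraries had no peak in the window. A strong H3K27me3 domain stood nearby in every library: the strongest peak within 50 kb of Fcgr1 began 26.5 and 27 kb before the gene start at 4 dpi, and 29.9 and 27 kb at 2 dpi. It was 46.6 and 45.2 kb wide at 4 dpi and 39.5 and 46.7 kb at 2 dpi, and its percentile was 99.7 and 99.8 at 4 dpi and 99.8 and 99.9 at 2 dpi. Fcgr1 thus carried the active marks within 30 kb of a Polycomb domain that ranked near the top of each list. No H3K27me3 peak came within 50 kb of the other 3 genes, the nearest being 66.9 to 69.0 kb past the end of Itgam, 201.4 to 206.9 kb before Adgre1 and 271.5 to 649.9 kb before Ptprc.

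Ptprc, the gene of the phosphatase CD45, had 4 sites, and no peak of any mark in its 112.9 kb body lay further than 49.4 kb from the start. At its promoter (-2.6 to +4.7 kb, 1:138098844-138106069) H3K18la stood at 81.3 and 87.4 at 4 dpi, against 95.3 and 88.6 at 2 dpi. H3K4me3 stood at 94.9 and 95.5 at 4 dpi, against 94.3 and 92.4 at 2 dpi. H3K27ac was at 92.5 and 89.2 at 4 dpi, and at 90.1 and 79.3 at 2 dpi. The 4 dpi libraries were the lower ones for H3K18la and the higher ones for H3K4me3, without overlap in either.

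The intragenic Ptprc site from +15.8 to +18.8 kb (1:138084676-138087688) was also called in all 12 active-mark libraries. H3K18la was at 77.4 and 83.8 at 4 dpi and 80.7 and 50.7 at 2 dpi. H3K27ac was at 91.6 and 85.5 at 4 dpi, above the 74.8 and 76.9 at 2 dpi. H3K4me3 was low, at 36.3 and 45.5 at 4 dpi and 25.1 and 37.2 at 2 dpi. A site from +35.5 to +41.7 kb had H3K4me3 in 4 of 4 libraries (58.4 and 52.8 at 4 dpi, against 65.9 and 71.8 at 2 dpi), and one from +29.1 to +32.0 kb had H3K27ac in 4, H3K18la in 1 and H3K4me3 in none.

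Adgre1, the gene of F4/80, was the most sparsely marked, with 2 sites at its 5′ end and no peak of any mark in the rest of its body. At the promoter (-1.1 to +3.6 kb, 17:57664569-57669330) H3K4me3 was at 87.2 and 84.4 at 4 dpi and 82.2 and 88.3 at 2 dpi. H3K18la was lower, at 67.0 and 60.0 at 4 dpi and 77.2 and 47.1 at 2 dpi. H3K27ac was at 72.5 in 4 dpi replicate 2 and at 66.4 and 82.9 at 2 dpi, while in 4 dpi replicate 1 a single peak of 19.94 kb, at 96.8, spanned both sites.

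The upstream Adgre1 site, from -12.7 to -9.5 kb (17:57653000-57656218), overlaps the edge of the window. Of its H3K18la peaks, only that of 2 dpi replicate 1 reached into the window. H3K18la was at 44.5 and 68.5 at 4 dpi, against 88.4 and 71.6 at 2 dpi, and the 4 dpi libraries were the lower ones. H3K27ac was called in all 4 libraries, at 80.0 in 4 dpi replicate 2 and at 74.2 and 72.7 at 2 dpi. H3K4me3 was called in 1 library at each time point, at 9.36 at 4 dpi and at 19.6 at 2 dpi.

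Itgam, the gene of the integrin chain CD11b, held the only tested region of the 4 genes that differed between the time points, at its promoter. At the promoter site (-0.7 to +5.2 kb, 7:127661139-127667042) H3K18la had no peak in 4 dpi replicate 1 and a peak at percentile 1.93 in 4 dpi replicate 2, against 81.5 and 69.5 at 2 dpi. H3K4me3 was at 63.5 and 51.3 at 4 dpi, against 77.0 and 90.0 at 2 dpi. H3K27ac was at 35.8 and 62.1 at 4 dpi and 71.8 and 60.3 at 2 dpi. The time points did not overlap for H3K18la and H3K4me3, with the 4 dpi libraries lower in both. By the strongest peak they overlapped for H3K27ac, while in the tested region given below they did not.

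**Figure D2:**
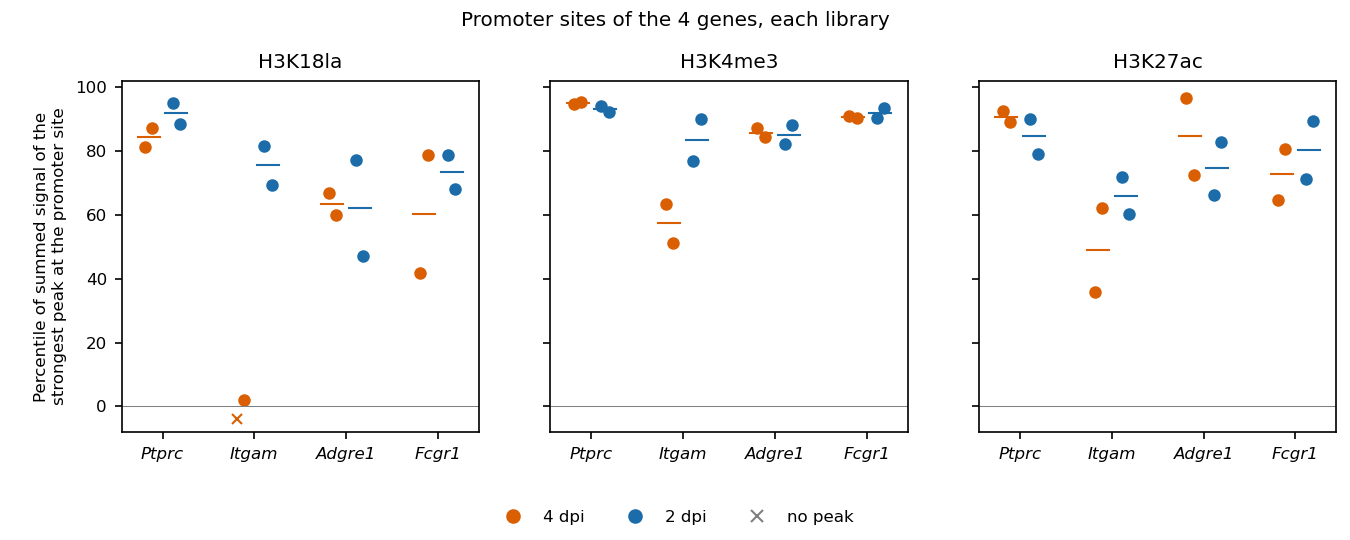
Percentile of summed signal of the strongest peak at the promoter site of each gene, for H3K18la, H3K4me3 and H3K27ac. Each point is a library, 4 dpi left of 2 dpi, horizontal lines are means of 2 libraries, and a cross marks a library with no peak. At Itgam, H3K18la is absent or at 1.93 at 4 dpi against 81.5 and 69.5 at 2 dpi, and H3K4me3 is at 63.5 and 51.3 against 77.0 and 90.0.

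The change was tested over regions merged and called in all 4 libraries of a mark, with limma on normal scores (each library's ranks placed on a normal scale of mean 0 and SD 1) and p-values adjusted over all regions of the mark. For H3K4me3, the region from -0.6 to +3.9 kb of Itgam stood at rank percentiles of 58.1 and 53.0 at 4 dpi, against 75.9 and 86.7 at 2 dpi. This is a fall by 0.77 normal scores (SE 0.15, limma adjusted p = 0.00654), lower in both 4 dpi libraries than in either 2 dpi library. It was the only one of 8 tested H3K4me3 regions of the 4 genes to pass, where 15.9% of all 13298 H3K4me3 regions passed and 8.07% passed as lower. The count is thus not above the background of this mark. The region did not pass with the mean signal per called base (-0.70, limma adjusted p = 0.338) or without limma's trended and robust variance (adjusted p = 0.0956), while it passed with maximum signal (-1.19, limma adjusted p = 0.0283) and without any single library.

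Regions called in all 4 libraries, and so tested, were 8 of 17 for H3K18la, 8 of 9 for H3K4me3 and 12 of 19 for H3K27ac at the 4 genes, while the 1 H3K27me3 region was not. The H3K18la peak of the Itgam promoter was missing from 1 library and so lay outside that test. In a fit chosen after the data had been seen, which kept regions called in at least 3 of 4 libraries and gave the missing library the lowest rank, its shift was -1.93 (SE 0.53, limma adjusted p = 0.129), with the value of 4 dpi replicate 1 imputed. This did not pass over 13444 regions, of which 0.245% passed. Of the 8 H3K18la regions of the 4 genes called in all libraries, none passed, where 0.118% of all 9325 H3K18la regions passed. None of the 8 had an unadjusted limma p under 0.05, where 14.8% of all H3K18la regions did. For H3K27ac the Itgam promoter region stood at 7.7 and 26.1 at 4 dpi and 39.0 and 34.2 at 2 dpi (shift -0.69, SE 0.46, limma adjusted p = 0.52), and the shift was -0.30 without the wide-peak library (limma adjusted p = 0.924).

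Further along Itgam, the upstream site (-4.6 to -1.7 kb, 7:127657153-127660113) and the intragenic site (+24.7 to +28.0 kb, 7:127686497-127689836) carried acetylation and lactylation without H3K4me3. Upstream, H3K18la was at 10.7 and 50.4 at 4 dpi and 60.5 and 7.53 at 2 dpi, and H3K27ac was at 60.9 and 46.4 at 4 dpi and 16.6 and 73.7 at 2 dpi. The replicates of a time point differed there more than the time points did. The intragenic site had H3K27ac in all 4 libraries, at 73.0 and 67.5 at 4 dpi and 76.7 and 44.6 at 2 dpi. H3K18la was called there in 3, at 24.5 in 4 dpi replicate 2 and at 59.2 and 14.5 at 2 dpi.

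The site past the end of Itgam (+64.0 to +69.2 kb, 7:127725848-127730959) crosses the edge of the window towards Itgax, the next protein-coding gene in the RefSeq order of GRCm38.p6, which encodes the integrin chain CD11c. Here the libraries at 4 dpi were the higher ones for H3K27ac, and only they had H3K4me3 called. H3K27ac stood at 93.2 and 86.0 at 4 dpi, against 35.6 and no peak at 2 dpi. The 93.2 belongs to a peak of 14.52 kb in the wide-peak library, which runs past the site to +78.6 kb. H3K4me3 was called at 12.6 and 8.06 at 4 dpi, near the bottom of its lists, and in neither library at 2 dpi. This difference in H3K4me3 was not tested. H3K18la was present throughout, at 72.4 and 78.4 at 4 dpi and 80.3 and 61.2 at 2 dpi. Some of these peaks lay wholly past the window. They were H3K18la at 72.4 and 61.2, H3K4me3 at 8.06 and H3K27ac at 35.6.

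For H3K27ac this downstream region, merged to +64.0 to +78.6 kb, passed only in the fit with a library imputed (2 dpi replicate 2): its shift was 2.18 (SE 0.38, limma adjusted p = 0.0271), where 0.253% of 18152 regions passed. The adjusted limma p was 0.00167 without 2 dpi replicate 1, 0.053 without 2 dpi replicate 2, 0.49 without 4 dpi replicate 1 and 0.146 without 4 dpi replicate 2, with shifts of 1.63 to 2.26. The call was therefore lost without any one of 3 libraries, the wide-peak library of 4 dpi among them, while the direction was kept.

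No other region of the 4 genes passed between the time points. For H3K27ac, none of 12 tested regions passed, where 0.185% of all 13494 regions passed. An unadjusted limma p under 0.05 was found at 1 of the 12, where 14% of all H3K27ac regions had one, so this count is not above the background. That region was the intragenic Ptprc region from +14.7 to +25.7 kb, at 78.8 and 78.4 at 4 dpi against 44.1 and 54.5 at 2 dpi (shift 0.81, SE 0.29, limma adjusted p = 0.248). The extent of this region is set by a peak of the wide-peak library, without which the shift was 0.34 (limma adjusted p = 0.857). The overlapping H3K18la region, +15.8 to +18.7 kb, was at rank percentiles of 62.0 and 68.8 at 4 dpi and 46.5 and 31.5 at 2 dpi (shift 0.68, SE 0.32, limma adjusted p = 0.347).

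H3K18la at the Ptprc promoter was at 77.1 and 75.2 at 4 dpi and 85.1 and 84.2 at 2 dpi (shift -0.31, SE 0.20, limma adjusted p = 0.486), and at the upstream Adgre1 region at 25.2 and 44.1 at 4 dpi and 65.2 and 55.1 at 2 dpi (shift -0.67, SE 0.35, limma adjusted p = 0.395). Neither passed. The libraries of the time points did not overlap, which with 2 on each side is often so by chance. For H3K4me3, the Ptprc region from +38.1 to +41.7 kb was at 42.3 and 41.5 at 4 dpi and 54.7 and 63.3 at 2 dpi (shift -0.43, SE 0.15, limma adjusted p = 0.0676). It passed without 2 dpi replicate 1 (-0.53, limma adjusted p = 0.0222), and the downstream Fcgr1 region (shift 0.37, SE 0.26, limma adjusted p = 0.364) passed without 2 dpi replicate 2 (0.66, limma adjusted p = 0.0389). The H3K4me3 promoter regions of Ptprc, Adgre1 and Fcgr1 shifted by 0.17, 0.03 and -0.08 (SE 0.10, 0.13 and 0.11) and did not pass.

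**Figure D3:**
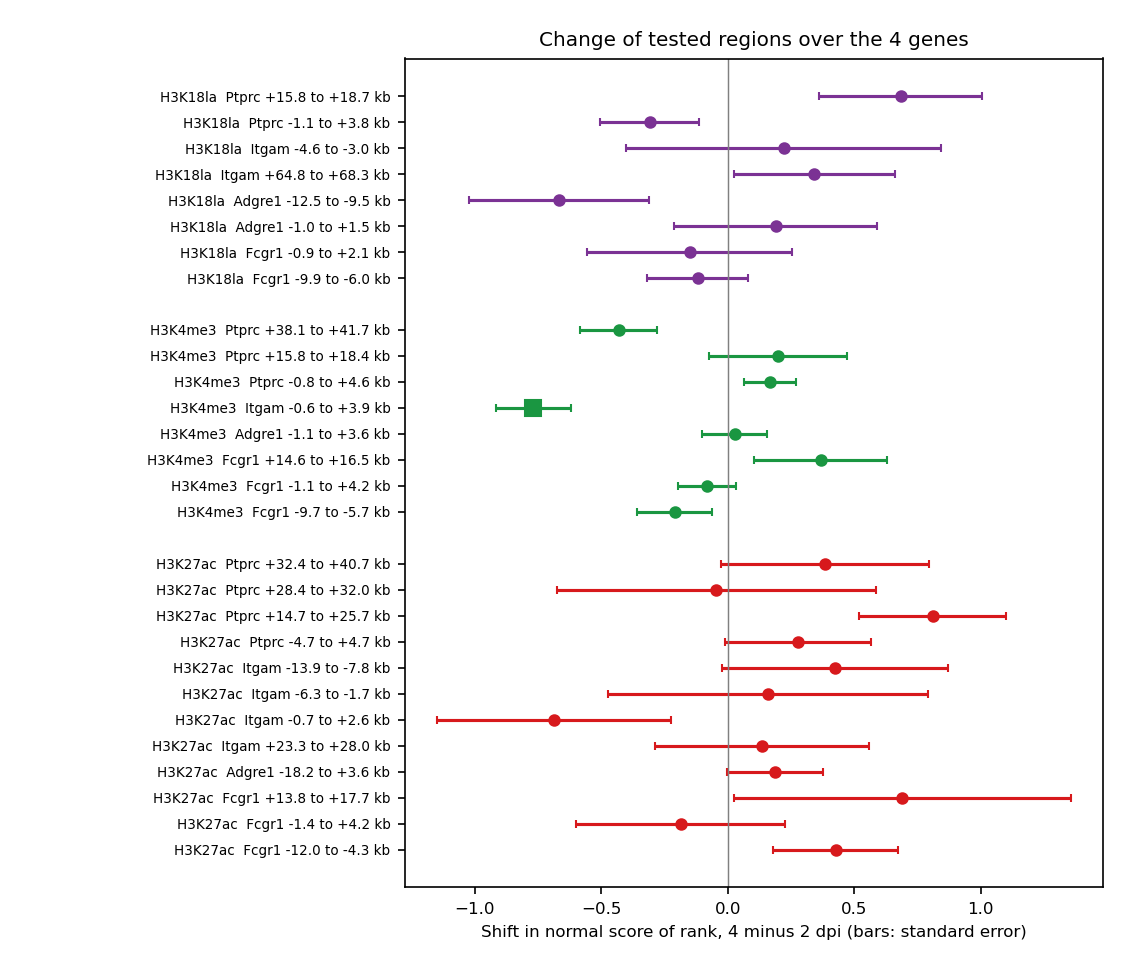
Shift of every tested region of the 4 genes, 4 minus 2 dpi, in normal scores of the within-library rank, by mark and by distance from the gene start. Points are limma estimates with bars of 1 standard error, and the square marks the only region with an adjusted p under 0.05, H3K4me3 over the Itgam promoter at -0.77.

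The lactylation mark ranked higher than H3K4me3 at both tested regions away from the starts of these genes, and lower at the Fcgr1 and Adgre1 promoters. Whether another transcript starts at either region was not checked. Both marks were compared over the 4254 regions called in all 8 of their libraries, in one limma fit with time point as a covariate. Of these, 5 lay at Ptprc, Adgre1 or Fcgr1, and Itgam had none. At the upstream Fcgr1 region (-9.9 to -5.7 kb) H3K18la stood at rank percentiles of 68.9 and 81.5 at 4 dpi and 80.1 and 77.9 at 2 dpi, and H3K4me3 at 45.2 and 51.4 at 4 dpi and 46.9 and 55.6 at 2 dpi. The difference was 0.76 (SE 0.13, limma adjusted p = 0.000352). At the intragenic Ptprc region (+15.8 to +18.7 kb) H3K18la was likewise higher, with means of 42.6 ± 14.9 and 18.7 ± 8.34 for H3K4me3 (SD, n = 4), a difference of 0.72 (SE 0.18, limma adjusted p = 0.00452).

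At the promoters the order turned round. H3K18la stood at 17.1 and 49.7 at 4 dpi and 30.5 and 43.2 at 2 dpi over the Fcgr1 promoter, and H3K4me3 at 72.8 and 72.6 at 4 dpi and 70.9 and 78.2 at 2 dpi. The difference was -1.04 (SE 0.20, limma adjusted p = 0.000792). Over the Adgre1 promoter H3K18la averaged 28.6 ± 6.08 and H3K4me3 62.9 ± 4.24 (SD, n = 4), a difference of -0.90 (SE 0.14, limma adjusted p = 0.000255). Over the Ptprc promoter H3K18la averaged 71.8 ± 5.84 and H3K4me3 80.6 ± 3.93 (SD, n = 4), a difference of -0.29 (SE 0.12) that did not pass (limma adjusted p = 0.0574) but did without H3K4me3 2 dpi replicate 2 (-0.38, limma adjusted p = 0.0245).

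**Figure D4:**
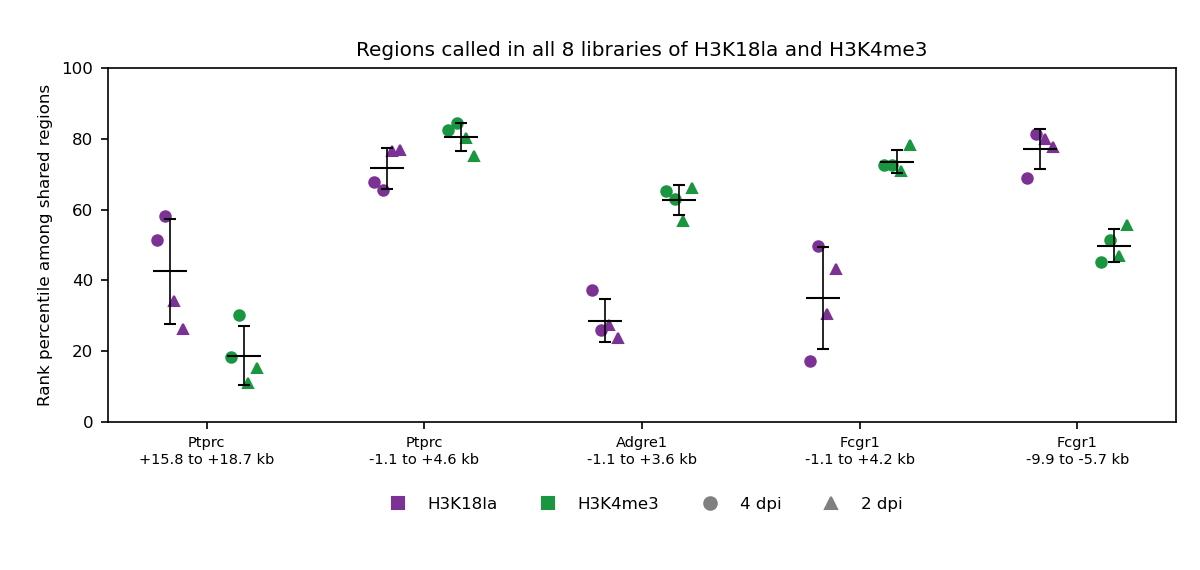
Rank percentile of the 5 regions of the 4 genes that were called in all 8 libraries of H3K18la and H3K4me3, by distance from the gene start. Circles are 4 dpi and triangles 2 dpi libraries, and black lines are means with SD (n = 4). H3K18la lies above H3K4me3 at the 2 regions away from the starts of these genes. It lies below H3K4me3 at the 3 promoters, and libraries overlap at both Ptprc regions.

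In all, 4 of these 5 regions passed, 2 with H3K18la higher and 2 with it lower, where 74.8% of all regions passed, 34.6% with H3K18la higher and 40.2% with it lower. A count of 4 of 5 is thus near the background. With maximum signal the Adgre1 promoter (-0.72, limma adjusted p = 0.0761) and the upstream Fcgr1 region (0.32, limma adjusted p = 0.154) did not pass, and with mean signal per called base the upstream Fcgr1 region gave 0.68 with a limma adjusted p of 0.0506.

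Between H3K18la and H3K27ac no tested region of the 4 genes passed. None of 6 regions called in all 8 libraries passed, where 42.7% of all 6305 did. An unadjusted limma p under 0.05 was found at 1 of the 6, against 52% of all regions. That region spanned the Adgre1 promoter and upstream site (-18.2 to +3.6 kb), where H3K18la averaged 66.5 ± 5.98 and H3K27ac 78.6 ± 3.64 (SD, n = 4), a difference of -0.37 (SE 0.16, limma adjusted p = 0.0726). It passed over stricter lists, without the peaks under the 25th percentile of maximum signal (-0.77, limma adjusted p = 0.0103), and it was 0.10 without the wide-peak H3K27ac library. The other differences were 0.32 at the Ptprc promoter (SE 0.20), 0.28 at the upstream Fcgr1 region (SE 0.19), -0.04 at the Fcgr1 promoter (SE 0.32), -0.21 inside Ptprc (SE 0.21) and -0.14 upstream of Itgam (SE 0.44). Without the wide-peak library they were, in the same order, 0.22, 0.14, -0.40, -0.077 and -0.22, and none passed. The prefixes of the sample names differ between the H3K18la and H3K27ac libraries (S035 against S143 and S100), so mark and prefix cannot be told apart.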

How the data were processed

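Macrophages were profiled by CUT&Tag in 16 libraries. Per the labels and methods, the authors trimmed reads with Trim Galore 0.6.6, aligned them with Bowtie2 2.4.4 and called peaks in each library with SEACR 1.3 (stringent, threshold 0.01). The deposited values are the summed signal (coverage) and maximum signal of each peak, whole numbers without scaling for depth. Labels name GRCm39 and the methods mm10. All 16 lists hold peaks past a GRCm38 chromosome end, so GRCm39 was used.

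Signal was ranked within each list. Regions were merged at 1 bp overlap, and those called in every library of a fit were tested with limma 3.58.1 (R 4.3.3, trended and robust variance), Benjamini-Hochberg adjusted over all regions and called under 0.05. The fit was tested on simulated data. Alternatives were maximum, mean and log2 signal, stricter lists (without peaks under the 25th percentile of maximum signal), equal lists, plain variance, a replicate block, other windows and leaving out each library.

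The members and lists were chosen with earlier results of these data known. The named regions were, for each gene and mark, those over or nearest the start, those of highest mean percentile and those that passed. An annotation of GRCm39 was not used here, so other cell type markers, related genes and genes of like pattern were not analysed. The labels' replicate numbers were followed where file names of H3K27me3 at 4 dpi differed from them.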

Additional observations from a re-analysis of the deposited data

Results flagged for a closer look

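In 4 of 26 sets of 4 libraries over both time points, 1 library lay apart from the other 3 by Dixon's test. Chance flags about 1 set in 20, but these sets are not independent, so the count does not show an excess. The strongest H3K18la peak in the Itgam window was at percentile 10.7 in 4 dpi replicate 1, and the next lowest library was at 69.5. In that library the promoter peak was not called and the downstream peak lay just past the window. Peaks of H3K27ac covered 8.38% of the Adgre1 window in 4 dpi replicate 1, the wide-peak library, and 2.43% in the next. At Fcgr1, H3K27me3 was called only in 4 dpi replicate 2, at percentile 2.44 and over 5.76% of the window, against 0 in the other 3 libraries. Both of these H3K27me3 flags come from the same peak. With 0 in the other 3 libraries, any value above 0 is flagged, so the rate of 1 in 20 does not apply to them.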

How the results depend on the processing

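Between the time points the calls were 11 for H3K18la, 2108 for H3K4me3, 25 for H3K27ac and 71 for H3K27me3. In the same order they were 0, 363, 0 and 4 with maximum signal, 0, 5, 0 and 0 with mean signal per called base, and 0 for each mark without trended and robust variance. With log2 of median-scaled signal H3K18la gave 113 and H3K27ac 68, stricter lists gave 42 for H3K27ac and 22 for H3K27me3, and lists of equal length gave 20 for H3K18la. With the fit that kept regions called in at least 3 of 4 libraries, chosen after seeing the data, H3K18la gave 33, H3K27ac 46 and H3K27me3 194. Leaving out 1 library at a time gave 0 to 367, 705 to 2776, 59 to 284 and 2 to 487. For H3K18la minus H3K27ac, 2690 regions were called, 1277 with mean signal per called base, 1787 over stricter lists and 2095 to 2985 without 1 library. For H3K18la minus H3K4me3, 3181 were called, 1602 over stricter lists and 2983 to 3518 without 1 library.

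Some regions changed sign under an alternative, and none of them was called in either fit. With maximum signal their shifts or differences were -0.29 for H3K18la at Itgam -4.6 to -3.0 kb, 0.21 for H3K18la at Fcgr1 -0.9 to +2.1 kb, 0.14 for H3K18la at Fcgr1 -9.9 to -6.0 kb, -0.029 for H3K4me3 at Ptprc +15.8 to +18.4 kb, -0.056 for H3K4me3 at Adgre1 -1.1 to +3.6 kb, 0.073 for H3K4me3 at Fcgr1 -1.1 to +4.2 kb, -0.091 for H3K27ac at Ptprc -4.7 to +4.7 kb, -0.14 for H3K27ac at Itgam -13.9 to -7.8 kb, -0.22 for H3K27ac at Adgre1 -18.2 to +3.6 kb, 0.11 for H3K27ac at Fcgr1 -1.4 to +4.2 kb, 0.20 for H3K18la minus H3K27ac at Ptprc +14.7 to +25.7 kb, -0.33 for H3K18la minus H3K27ac at Fcgr1 -12.0 to -4.3 kb, 0.0053 for H3K18la minus H3K4me3 at Ptprc -1.1 to +4.6 kb. With mean signal per called base these were -0.17 for H3K18la at Itgam +64.8 to +68.3 kb, 0.032 for H3K4me3 at Ptprc +38.1 to +41.7 kb, -0.32 for H3K4me3 at Adgre1 -1.1 to +3.6 kb, 0.016 for H3K4me3 at Fcgr1 -1.1 to +4.2 kb, 0.75 for H3K27ac at Ptprc +28.4 to +32.0 kb, -0.25 for H3K27ac at Ptprc -4.7 to +4.7 kb, -1.23 for H3K27ac at Itgam -13.9 to -7.8 kb, -0.14 for H3K27ac at Adgre1 -18.2 to +3.6 kb, -0.47 for H3K27ac at Fcgr1 +13.8 to +17.7 kb, 0.057 for H3K27ac at Fcgr1 -1.4 to +4.2 kb, 0.42 for H3K18la minus H3K27ac at Ptprc +14.7 to +25.7 kb, -0.15 for H3K18la minus H3K27ac at Ptprc -4.8 to +4.7 kb, -0.37 for H3K18la minus H3K27ac at Fcgr1 -12.0 to -4.3 kb. With log2 of median-scaled signal these were -0.023 for H3K4me3 at Ptprc -0.8 to +4.6 kb, -0.058 for H3K4me3 at Adgre1 -1.1 to +3.6 kb. With regions called in at least 3 of 4 libraries the value was -0.053 for H3K27ac at Fcgr1 +13.8 to +17.7 kb. With lists of equal length these were 0.021 for H3K18la minus H3K27ac at Ptprc +14.7 to +25.7 kb, 0.25 for H3K18la minus H3K27ac at Fcgr1 -1.4 to +4.2 kb. Leaving out each library in turn gave -0.35 to 0.78 for H3K18la at Itgam -4.6 to -3.0 kb, -0.65 to 0.34 for H3K18la at Fcgr1 -0.9 to +2.1 kb, -0.32 to 0.080 for H3K18la at Fcgr1 -9.9 to -6.0 kb, -0.043 to 0.49 for H3K4me3 at Ptprc +15.8 to +18.4 kb, -0.13 to 0.18 for H3K4me3 at Adgre1 -1.1 to +3.6 kb, -0.20 to 0.038 for H3K4me3 at Fcgr1 -1.1 to +4.2 kb, -0.22 to 0.56 for H3K27ac at Ptprc +32.4 to +40.7 kb, -0.75 to 0.54 for H3K27ac at Ptprc +28.4 to +32.0 kb, -0.12 to 0.66 for H3K27ac at Ptprc -4.7 to +4.7 kb, -0.48 to 0.62 for H3K27ac at Itgam -13.9 to -7.8 kb, -0.86 to 0.99 for H3K27ac at Itgam -6.3 to -1.7 kb, -0.28 to 0.48 for H3K27ac at Itgam +23.3 to +28.0 kb, -0.35 to 1.61 for H3K27ac at Fcgr1 +13.8 to +17.7 kb, -0.66 to 0.30 for H3K27ac at Fcgr1 -1.4 to +4.2 kb, -0.55 to 0.18 for H3K18la minus H3K27ac at Itgam -6.3 to -1.7 kb, -0.42 to 0.10 for H3K18la minus H3K27ac at Adgre1 -18.2 to +3.6 kb, -0.40 to 0.15 for H3K18la minus H3K27ac at Fcgr1 -1.4 to +4.2 kb.

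Replicate numbers did not pair the libraries (correlation of deviations between -0.065 and 0.086). With the replicate number as a block H3K18la gave 218 calls, H3K27ac 581 and H3K27me3 208, and no call at the 4 genes changed. Depth could not be read from the lists, which limits any statement on places without a peak.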
